A study of Homo sapiens with 4 samples.

Results

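The matrix metalloproteases (MMPs), the ADAMTS proteases and the tissue inhibitors of metalloproteases (TIMPs) were followed in SK-N-SH cells with and without overexpression of the lncRNA *RP5-998N21.4*. Members were chosen by gene symbol alone, as every gene of the deposited count table named MMP, ADAMTS or TIMP followed by a number, with an A or B where the symbol has one. The table holds 47 such genes of 57820 in all, namely 24 MMP, 19 ADAMTS and 4 TIMP genes. SK-N-SH is a human cell line, established from a neuroblastoma. Its cultures were transduced with lentivirus that carries this lncRNA (*RP5-998N21.4* OE) or with the same virus without an insert (vector control), and RNA-seq was performed on 2 libraries of each. The control libraries are titled WT, but both their treatment label and the methods of the study name an empty vector, so both groups carry lentivirus, and a promoter of the vector drives the lncRNA in OE. No source used here says whether the libraries of a condition came from separate cultures, so each p-value measures only the spread between libraries, which may be technical.

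MMPs and ADAMTS proteases are zinc enzymes that cleave the extracellular matrix and proteins at the cell surface. Both are made as inactive proenzymes. MMPs as a family degrade collagens, gelatin, laminin and fibronectin, while ADAMTS proteases have narrower targets, such as versican, aggrecan, procollagen, fibrillin and von Willebrand factor. TIMPs bind the active site and block it, and *TIMP3*, which stays bound to the matrix, also inhibits several ADAMTS and ADAM proteases. In neuroblastoma, as in other solid tumours, MMPs and TIMPs are studied mostly for invasion and for the remodelling of the matrix around the tumour.

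The enzymes share a catalytic site in which 3 histidines hold the zinc ion. In the 39 members with a coding transcript where a search found that site once, it covers 11 codons, or 33 bases. It is shown here for the members on which the results turn and for a close relative of each, with the 3 histidine codons in capitals, read 5′ to 3′ on the coding strand from transcripts of the GENCODE annotation for GRCh37 (hg19).
MMP1: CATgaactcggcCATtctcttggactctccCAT
MMP3: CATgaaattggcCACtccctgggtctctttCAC
MMP10: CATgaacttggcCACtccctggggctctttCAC
MMP2: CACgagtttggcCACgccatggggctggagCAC
MMP9: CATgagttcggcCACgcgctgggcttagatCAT
ADAMTS6: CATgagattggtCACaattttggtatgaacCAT
ADAMTS10: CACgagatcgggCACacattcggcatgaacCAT
ADAMTS17: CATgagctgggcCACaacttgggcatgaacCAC
ADAMTS19: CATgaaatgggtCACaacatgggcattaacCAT
ADAMTS1: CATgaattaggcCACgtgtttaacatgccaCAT
ADAMTS15: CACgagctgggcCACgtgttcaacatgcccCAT

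The sites of *MMP3* and *MMP10*, which lie on either side of *MMP1* on chromosome 11, are identical at 31 of 33 bases, and those of *MMP1* and *MMP3* at 24. The gelatinases *MMP2* and *MMP9* share 24 bases, *ADAMTS6* and *ADAMTS10* share 26, *ADAMTS17* and *ADAMTS19* share 27, and *ADAMTS1* and *ADAMTS15* share 27. Across the families, *ADAMTS15* and *MMP9* share 20. The site of *MMP16* was found but is not reported here. All 18 ADAMTS sites that were read cross an exon junction and lie in 2 exons, while all 20 MMP sites that were read lie within 1 exon, which is exon 5 in 16 of them and exon 8 in both gelatinases. In hg19 the site of *MMP1* is at chr11:102666280-102666312 (minus strand, exon 5), that of *MMP3* at chr11:102711266-102711298 (minus strand, exon 5) and that of *MMP10* at chr11:102647449-102647481 (minus strand, exon 5). The *MMP2* site is at chr16:55525739-55525771 (plus strand) and the *MMP9* site at chr20:44641092-44641124 (plus strand). For the ADAMTS genes the 2 exonic pieces and the intron between them span chr5:64595943-64625221 in *ADAMTS6*, chr19:8661088-8661207 in *ADAMTS10*, chr15:100695510-100739539 in *ADAMTS17*, chr5:128932341-128956326 in *ADAMTS19*, chr21:28213462-28214186 in *ADAMTS1* and chr11:130331507-130332004 in *ADAMTS15*.

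Counts were deposited per Ensembl transcript without normalization and were summed per gene. Totals were 23785164 and 24098041 counts in vector control cells and 24601728 and 28307591 in OE, and levels are given as CPM, each count scaled to a common library total, after TMM normalization. *RP5-998N21.4* had 32 and 33 counts in vector control cells and 2407 and 2808 in OE. Of 10 neuroblastoma markers, 9 were tested and *TH* was at 0 in all libraries. Each of the 9 was higher in both OE libraries than in both vector control libraries (27.8% of all genes tested). In edgeR 6 of these markers had an unadjusted p under 0.05, where the share over all genes in that direction was 10.1%. *PHOX2A* and *ISL1*, not among the 6, were uneven in vector control cells, at 330 and 1263 counts and at 386 and 935. Summed levels of the markers were 513 and 579 CPM in vector control cells against 905 and 885 CPM in OE. Of 6 markers of the substrate-adherent, mesenchymal cells of this line, 4 were lower in OE at an unadjusted p under 0.05 (10.7% of all genes tested), while *VIM* and *FOSL1* were higher in OE without overlap (log2 fold changes 1.22 and 0.15, unadjusted p = 0.128 and 0.0908 in edgeR). The summed levels of all 6 were 1870 and 1900 CPM against 2380 and 1450 CPM, where *VIM* had 31466 counts in OE library 1 and 10869 in OE library 2. Of 15 markers of other cell types, 7 were at 0 throughout, *PECAM1* was not listed and 5 were tested, of which 4 were lower in OE without overlap (27.6% of all genes tested) and 0 had an unadjusted p under 0.05 in edgeR, with summed levels of 999 and 1140 CPM against 955 and 411 CPM, mostly from *COL1A1*. In bulk RNA, fewer cells of a type and less RNA per cell cannot be told apart, and the part of these markers in the values given here was not tested.

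Of the 47 members, 41 had at least 1 count and 31 had enough counts to be tested. *ADAMTS12*, *MMP20*, *MMP23B*, *MMP26*, *MMP27* and *TIMP4* were at 0 in all 4 libraries, which allows up to 3 counts in each. The other 10 members that were not tested had at most 11 counts in any library. They were *ADAMTS2*, *ADAMTS8*, *ADAMTS16*, *ADAMTS18*, *ADAMTS20*, *MMP7*, *MMP8*, *MMP12*, *MMP13* and *MMP23A*. Neither the neutrophil collagenase *MMP8* nor matrilysin *MMP7* nor collagenase 3, *MMP13*, had more than 8 counts in a library.

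All members together took 0.22% and 0.163% of the vector control counts and 0.162% and 0.233% of the OE counts. *MMP2* alone made up 45.4% and 26.8% of those counts in vector control cells and 32% and 48.9% in OE. The order of the members was read in CPM per kilobase of merged exons. On that scale *MMP2* had a mean level of 164 over the 4 libraries, *MMP3* 107, *MMP1* 59.6, *TIMP2* 38.1, *TIMP1* 15.3, *MMP9* 14.9, *MMP11* 13 and *ADAMTS9* 9.07. Levels of *MMP2* ran from 94.9 to 237 and so overlapped those of *MMP3*, which ran from 93.5 to 119. *TIMP1*, *MMP9* and *MMP11* overlapped in the same way. Between *MMP3*, *MMP1* and *TIMP2* the ranges did not overlap. When counts were divided by the length of each transcript instead, *TIMP2* reached 88 against 82.8 for *MMP1*, and *ADAMTS9* (38.6) and *MMP11* (31.1) stood above *TIMP1* (26.2). The *TIMP1* value leaves out some counts, since only 91.3% of them lay on a transcript with a known length.

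**Figure D1:**
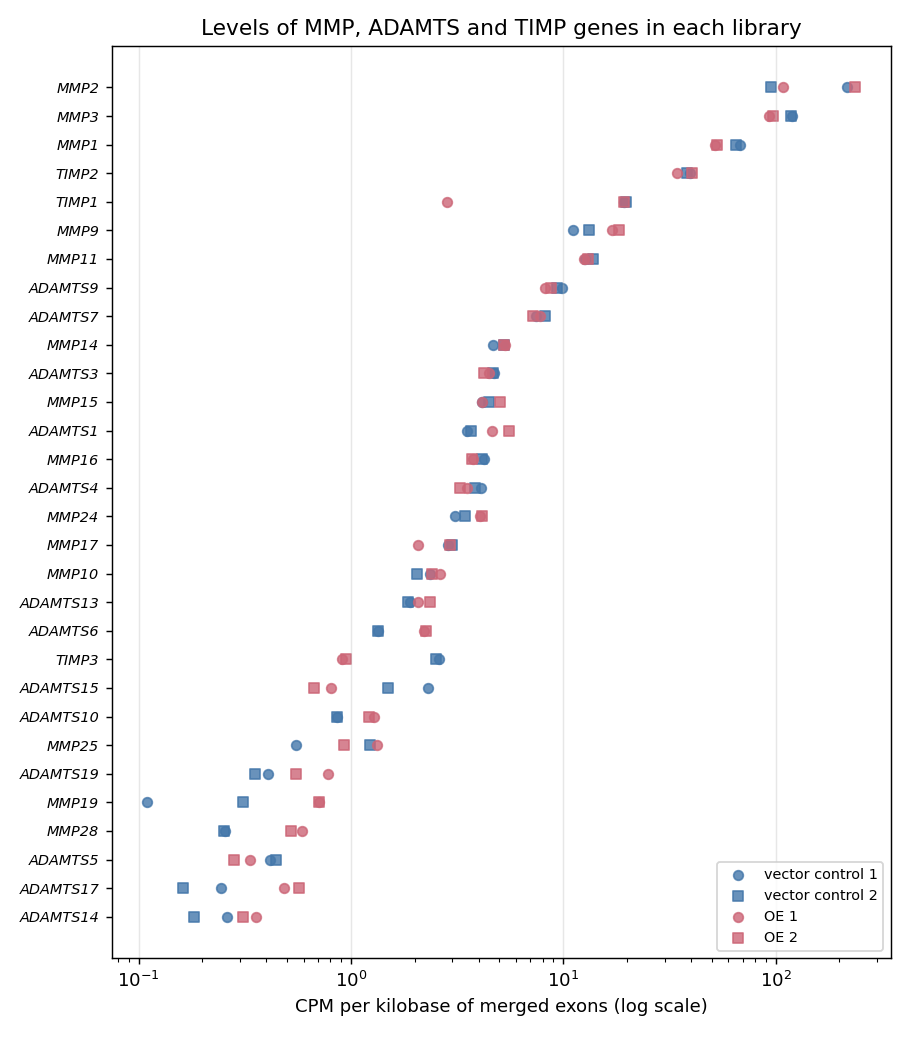
Level of each member with a mean of at least 1 CPM in each library, in CPM per kilobase of merged exons on a log scale; blue is vector control, red is OE, circles are library 1 and squares library 2. The order runs from *MMP2* with a mean of 164 to *ADAMTS14*, and libraries of 1 condition differ by more than 2-fold in *MMP2*, *MMP19* and *MMP25* (vector control) and in *MMP2* and *TIMP1* (OE).

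The comparison of OE with vector control asked which of these genes differed by more than the spread between libraries. The study's thresholds were an adjusted p under 0.01 and a log2 fold change above 0.5 in size. With edgeR's quasi-likelihood test 0 of the 31 tested members were called at these thresholds, and 0 of the 20528 genes tested were (0%). At an adjusted p under 0.05, 0 members passed, against 0.594% of all genes. The smallest adjusted p of a member was 0.0615, that of *TIMP3*. At an unadjusted p under 0.05, 13 members passed (41.9%), against 20.8% of all genes. Of these 9 were higher in OE, where the share over all genes was 10.1%, and 4 were lower, where it was 10.7%. *MMP21*, at 0 counts in both vector control libraries, entered the test only through OE, where it is high, and without it 8 were higher. The count depended on single libraries. In edgeR 8 members passed without vector control library 1 (25.8%, against 16.8% of all genes), 9 without vector control library 2 (29%, against 16.4%), 8 without OE library 1 (25.8%, against 14.9%) and 6 without OE library 2 (19.4%, against 16.7%). With DESeq2 at the study's thresholds 6 members were called (19.4%), against 8.77% of all genes. Higher were *ADAMTS6*, *ADAMTS17*, *MMP9* and *MMP21* (4.35% of all genes were called in this direction), and lower were *TIMP3* and *ADAMTS15* (4.42%). Without *MMP21*, 5 members were called by DESeq2. With a library left out DESeq2 called 4 members without vector control library 2 (12.9%, against 6.94% of all genes) and 2 in each of the other 3 fits (6.45%, against 6.97%, 7.02% and 7.38%). In every fit with a library left out, 1 condition has a single library, which is assumed to vary like those of the other condition.

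In 22 of the 31 tested members (71%) the levels of OE and vector control did not overlap, against 55.4% of all genes tested. OE was higher in 13 of them, *MMP21* included, and lower in 9, against 27.8% and 27.6% of all genes. The median log2 fold change was 0.10 over the members and 0.01 over all genes tested, with 17 members above 0 and 14 below. By family, 10 of 15 MMPs, 7 of 13 ADAMTS genes and 0 of 3 TIMPs had a log2 fold change above 0. Non-overlap was seen in 12 of the 13 ADAMTS genes, 9 of the 15 MMPs and 1 of the 3 TIMPs. An exact permutation test of 2 libraries against 2 cannot give a two-sided p below 0.333 for a single gene, so only fits across all genes are reported.

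**Figure D2:**
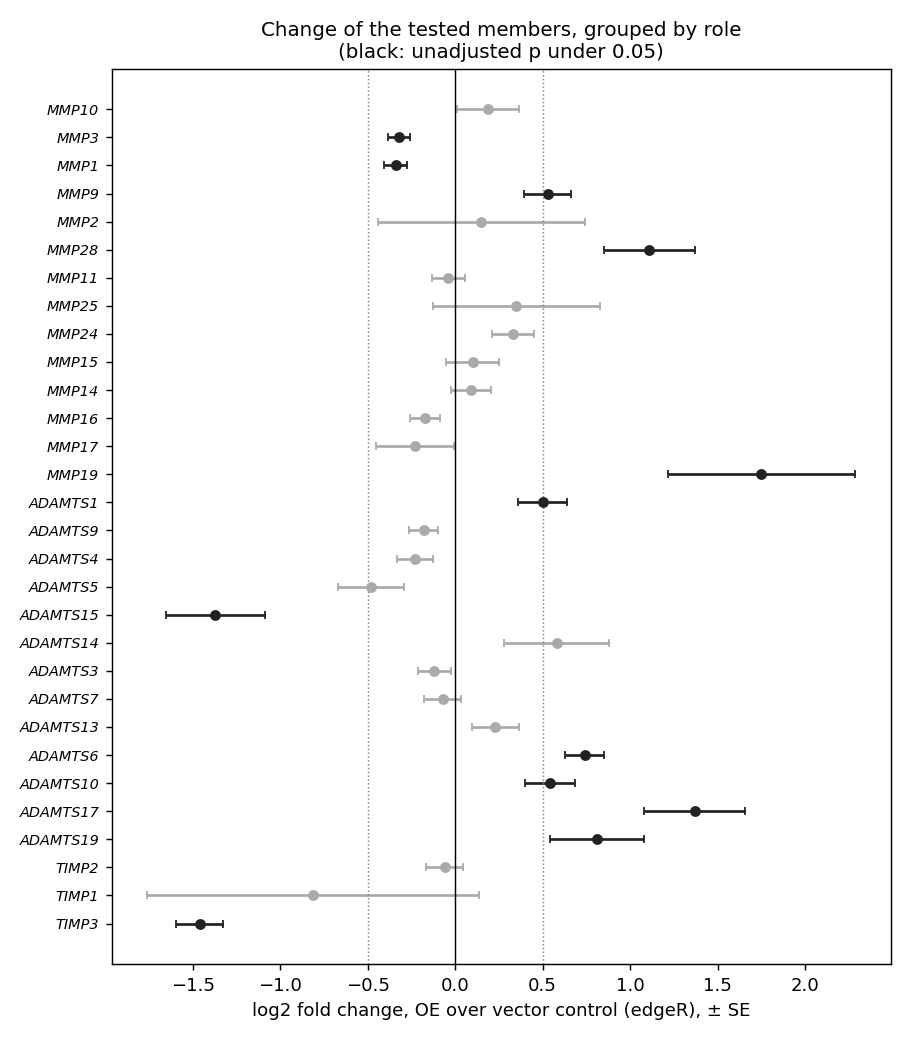
Log2 fold change of OE over vector control for the tested members with a mean of at least 1 CPM, ordered by role. Bars are the SE worked back from edgeR's F statistic. Black points have an unadjusted p under 0.05 and dotted lines mark the study's threshold of 0.5. *TIMP3* and *ADAMTS15* lie farthest to the left and *MMP19* farthest to the right, and the bars of *MMP2* and *TIMP1* are the longest.

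The inhibitors were led in level by *TIMP2* and in difference by *TIMP3*. *TIMP3* (ENSG00000100234.11, chr22:33197691-33259028 in hg19, plus strand), the matrix-bound inhibitor, had 279 and 271 counts in vector control cells and 105 and 126 in OE. The groups stood far apart, and the libraries within each were close. The level was 11.7 ± 0.317 CPM (SD, n = 2) in vector control cells and 4.26 ± 0.121 CPM (SD, n = 2) in OE, that is 2.75-fold lower in OE. The log2 fold change was -1.46 (SE 0.136, unadjusted p = 0.000595, adjusted p = 0.0615 in edgeR), and it stayed between -1.49 and -1.43 when any library was left out. DESeq2 gave it an adjusted p of 1.25e-14 and called it in each of the 4 fits that left out a library. All of its counts fell on a single transcript, ENST00000266085.6.

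*TIMP2*, which inhibits *MMP2* and also takes part in its activation at the cell surface, had 5720 and 5605 counts in vector control cells and 5329 and 7253 in OE. The groups overlapped, and the log2 fold change was -0.06 (SE 0.105, unadjusted p = 0.576, adjusted p = 0.776 in edgeR). *TIMP1*, a secreted inhibitor of most MMPs, had 649 and 669 counts in vector control cells but 103 and 808 in OE. OE library 1 alone was low, and OE library 2 had 27.9 CPM against 27.8 and 28.4 CPM in the vector control. Its log2 fold change was -0.81 (SE 0.949, unadjusted p = 0.443, adjusted p = 0.682 in edgeR), or -0.01 without OE library 1 and -2.78 without OE library 2. Without OE library 2, DESeq2 called it.

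The OE libraries differed 6.81-fold in *TIMP1*. Of the 11451 genes that averaged 10 CPM or more, 3.38% differed more than 5-fold between these libraries. Other genes with a low value in OE library 1, chosen after their values were seen, were *PLAT*, tissue plasminogen activator, with 6751 and 6321 counts in vector control cells and 801 and 6173 in OE, and *PLAUR*, the urokinase receptor, with 944 and 687 against 137 and 691. In *TIMP1* the low value of OE library 1 lay in 1 transcript. ENST00000218388.4 had 619 and 627 counts in vector control cells and 16 and 774 in OE, while ENST00000377018.2 had 30 and 42 against 87 and 34. Summed, the TIMPs stood at 285 and 278 CPM in vector control cells and at 220 and 282 CPM in OE.

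**Figure D3:**
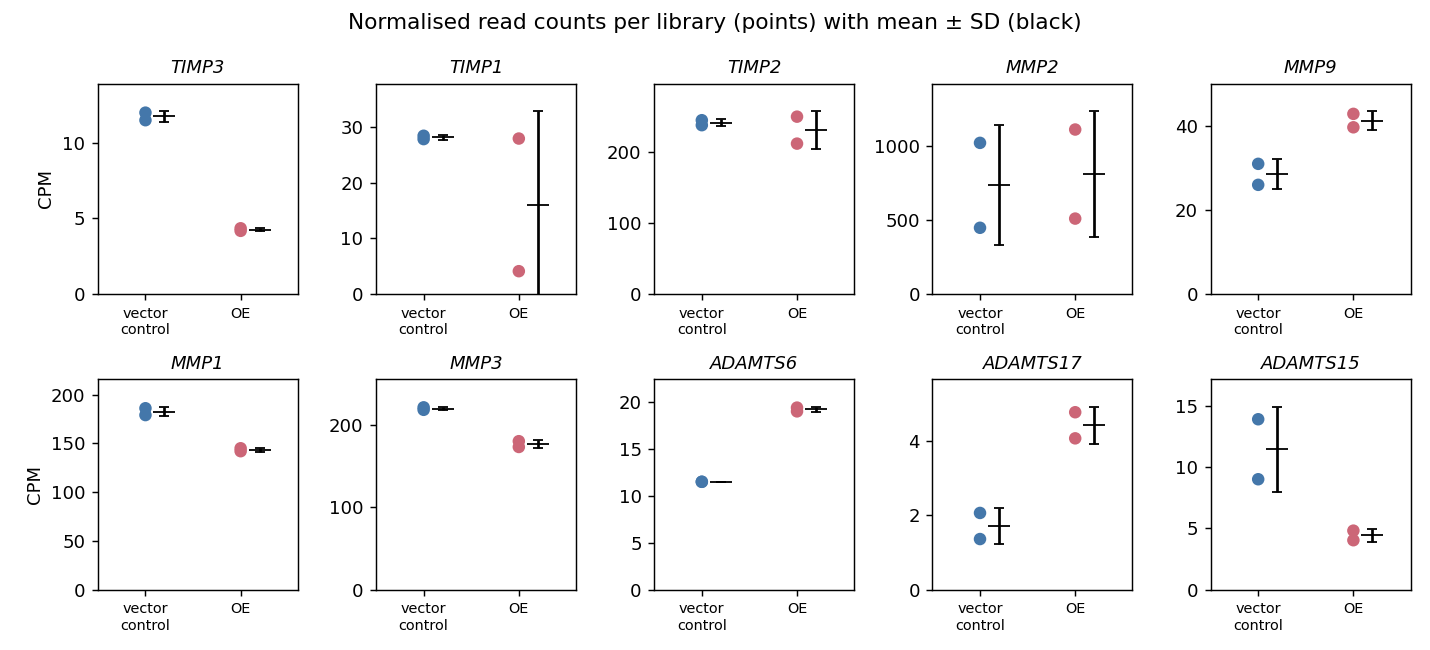
Level in CPM of 10 members in each library (points), with the mean and SD of the 2 libraries of each condition in black; every axis starts at 0, where the lower SD bar of *TIMP1* in OE is cut off. The points of *TIMP3*, *MMP9*, *MMP1*, *MMP3*, *ADAMTS6*, *ADAMTS17* and *ADAMTS15* do not overlap between conditions, while those of *TIMP1*, *TIMP2* and *MMP2* do.

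The gelatinases cleave denatured collagen and the collagen of basement membranes. *MMP2* (ENSG00000087245.8, chr16:55423612-55540603, plus strand) had 23771 and 10505 counts in vector control cells and 12784 and 32237 in OE, so that each condition held a high and a low library. Its level was 733 ± 405 CPM (SD, n = 2) in vector control cells and 811 ± 427 CPM (SD, n = 2) in OE, with a log2 fold change of 0.15 (SE 0.593, unadjusted p = 0.819, adjusted p = 0.918 in edgeR). Libraries of a condition differed 2.28-fold in the vector control and 2.19-fold in OE, and of the 11451 genes that averaged 10 CPM or more, 6.72% had such a gap of over 2-fold in the vector control and 7.34% in OE. Nearly all of its counts lay on ENST00000219070.4 in each library. The sign of its difference followed the library left out, from -0.53 without OE library 2 to 0.86 without vector control library 1.

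*MMP9* (ENSG00000100985.7, chr20:44637547-44645200, plus strand), the other gelatinase, had 607 and 729 counts in vector control cells and 997 and 1243 in OE. Both OE libraries were above both vector control libraries. The level was 28.5 ± 3.50 CPM (SD, n = 2) against 41.3 ± 2.29 CPM (SD, n = 2), 1.45-fold higher in OE, with a log2 fold change of 0.53 (SE 0.134, unadjusted p = 0.0183, adjusted p = 0.158 in edgeR). DESeq2 gave an adjusted p of 0.00344 and called it again without vector control library 2, but not without any of the other libraries. An antisense RNA, *SLC12A5-AS1*, shares 430 exonic bases with it and had 99, 112, 116 and 171 counts in the libraries in the same order. Strand use in the counting is not given in the sources used here, so reads of a gene and of a partner on the opposite strand cannot be told apart.

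Interstitial collagenase *MMP1* (ENSG00000196611.4, chr11:102660132-102668891, minus strand) cuts fibrillar collagens, and stromelysin-1, *MMP3* (ENSG00000149968.7, chr11:102706532-102714340, minus strand), cuts proteoglycans and can activate other MMPs. *MMP1* had 4340 and 4214 counts in vector control cells and 3580 and 4210 in OE, or 183 ± 4.97 and 144 ± 2.03 CPM (SD, n = 2 each). *MMP3* had 5157 and 5138 counts against 4355 and 5200, or 220 ± 1.98 and 176 ± 4.39 CPM (SD, n = 2 each). After normalization both were lower in each OE library than in each vector control library, by nearly the same amount.

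For *MMP1* the log2 fold change was -0.34 (SE 0.0669, unadjusted p = 0.00809, adjusted p = 0.118 in edgeR), and for *MMP3* -0.32 (SE 0.0625, unadjusted p = 0.00844, adjusted p = 0.119 in edgeR). Both are smaller than the threshold of 0.5, although DESeq2 gave adjusted p-values of 3.19e-07 and 1.90e-07. Stromelysin-2, *MMP10*, whose catalytic site is close to that of *MMP3*, had 97 and 85 counts against 116 and 123. It lay higher in OE without overlap, with a log2 fold change of 0.19 (unadjusted p = 0.352 in edgeR). Summed over the 10 collagenases, stromelysins and related MMPs, levels were 412 and 401 CPM in vector control cells and 321 and 330 CPM in OE.

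The membrane-type MMPs sit on the cell surface, and *MMP14* is the main activator of pro-MMP2. None of the 6 had an unadjusted p under 0.05 in edgeR (20.8% of all genes tested), and 2 did not overlap between conditions (55.4% of all genes tested). *MMP14* had 506 and 575 counts in vector control cells and 618 and 706 in OE. *MMP15* had 408 and 443 against 441 and 617, and *MMP17*, which is anchored by a lipid, 267 and 283 against 207 and 341. These 3 overlapped between the conditions, with log2 fold changes of 0.09, 0.10 and -0.23.

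*MMP16* had 1201 and 1186 counts in vector control cells and 1150 and 1306 in OE, lower in OE without overlap after normalization (log2 fold change -0.17, unadjusted p = 0.128 in edgeR). *MMP24*, which is expressed mainly in the nervous system, had 316 and 353 against 444 and 527, higher in OE without overlap (log2 fold change 0.33, unadjusted p = 0.0577). *MMP25* had 61 and 137 against 159 and 128 and overlapped, with a log2 fold change of 0.35 that was -0.12 without vector control library 1 and 1.03 without vector control library 2. The last 2 share exonic bases with genes on the opposite strand. *MMP24OS* shares 806 bases with *MMP24* and was lower in OE, at 2446, 2807, 2130 and 1805 counts, and *MMP25-AS1* shares 1454 bases with *MMP25* and had 194, 308, 353 and 422 counts.

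Among the secreted MMPs that furin activates inside the cell, stromelysin-3, *MMP11*, was the only one of high level. It had 1520 and 1666 counts in vector control cells and 1622 and 1957 in OE, which overlapped (log2 fold change -0.04, unadjusted p = 0.683 in edgeR). In each library most of these counts lay on ENST00000465385.1. The catalytic site of *MMP11* was read from ENST00000215743.3, which had 83 and 0 counts against 0 and 651. Epilysin, *MMP28* (ENSG00000129270.11), had 19 and 19 counts against 47 and 48, or 2.17-fold more in OE. Its log2 fold change was 1.11 (SE 0.259, unadjusted p = 0.0145, adjusted p = 0.146 in edgeR). This value rests on the sum over transcripts, since the counts lay on a different transcript in each vector control library and in OE, and with only the transcript of the highest mean count, which was at 0 in vector control cells, the fitted value was 8.48, a number that depends on the prior count. *MMP21*, which takes part in left-right patterning of the embryo, had 0 and 0 counts against 12 and 12. In OE *MMP21* had a mean level 3.48-fold that of 3 counts in each vector control library, with no counting error on the OE counts. It passed the filter on low counts only through the OE libraries, so its p is not given. It shares 136 exonic bases with *EDRF1* on the opposite strand, which had 402, 612, 618 and 892 counts.

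*MMP19*, a widely expressed protease of basement membrane proteins, had 12 and 34 counts in vector control cells and 83 and 96 in OE. The OE libraries stood at 3.30 and 3.31 CPM, and the vector control libraries differed 2.81-fold. Its log2 fold change was 1.75 (SE 0.536, unadjusted p = 0.034, adjusted p = 0.205 in edgeR), from 1.19 without vector control library 1 to 2.67 without vector control library 2. DESeq2 gave an adjusted p of 0.0162 with all libraries and called it without vector control library 2 only. *TMEM198B* on the opposite strand shares 821 exonic bases with *MMP19* and had 1577 and 1517 counts in vector control cells and 2136 and 2433 in OE. How many of its reads were counted for *MMP19* was not tested. Within *MMP19*, ENST00000548882.1 had 12 and 34 counts in vector control cells and 83 and 87 in OE. The other 9 counts of OE library 2 lay on ENST00000547487.1. The catalytic site of *MMP19* was read from ENST00000322569.4, which had 0 counts in every library.

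In the ADAMTS family the proteases of versican, aggrecan and related proteoglycans had the largest summed level, led by *ADAMTS9*. *ADAMTS9* had 2462 and 2354 counts in vector control cells and 2214 and 2711 in OE, *ADAMTS4* 989 and 936 against 912 and 975, and *ADAMTS5* 95 and 102 against 82 and 80. Each was lower in both OE libraries after normalization, with log2 fold changes of -0.18, -0.23 and -0.48, and none had an unadjusted p under 0.05 (0.108, 0.086 and 0.0668 in edgeR). *ADAMTS15* (ENSG00000166106.2, chr11:130318540-130346540, plus strand), a versican-cleaving protease, was farther apart, with 325 and 212 counts against 121 and 117. Its level was 11.5 ± 3.49 CPM (SD, n = 2) in vector control cells and 4.43 ± 0.549 CPM (SD, n = 2) in OE, 2.59-fold lower. The log2 fold change was -1.37 (SE 0.285, unadjusted p = 0.010, adjusted p = 0.128 in edgeR), from -1.66 to -1.03 with a library left out. DESeq2 gave an adjusted p of 0.00034 and called it again only without vector control library 2.

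*ADAMTS1* (ENSG00000154734.10), whose catalytic site shares 27 of 33 bases with that of *ADAMTS15*, differed in the other direction. It had 599 and 630 counts in vector control cells and 844 and 1180 in OE, with no overlap. The log2 fold change was 0.50 (SE 0.138, unadjusted p = 0.0242, adjusted p = 0.179 in edgeR), from 0.36 without OE library 2 to 0.63 without OE library 1. DESeq2 called it without OE library 1 only. The summed level of the 7 proteases of this group was 193 and 180 CPM against 167 and 175 CPM.

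The pair that binds or cleaves fibrillin in microfibrils, *ADAMTS6* and *ADAMTS10*, was higher in OE in both members. *ADAMTS6* (ENSG00000049192.10, chr5:64444565-64777747, minus strand) had 268 and 270 counts in vector control cells and 477 and 563 in OE. Libraries of the same condition were nearly equal, at 11.5 and 11.5 CPM against 19 and 19.4 CPM. This is 1.67-fold more in OE, with a log2 fold change of 0.74 (SE 0.111, unadjusted p = 0.00325, adjusted p = 0.0898 in edgeR) that stayed between 0.72 and 0.76 with any library left out. DESeq2 gave an adjusted p of 2.60e-07 with all libraries and did not call it in any fit that left out a library.

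*ADAMTS10* (ENSG00000142303.9, chr19:8645124-8675620, minus strand) had 114 and 115 counts against 183 and 201, again with close replicates and no overlap. Its log2 fold change was 0.54 (SE 0.143, unadjusted p = 0.0221, adjusted p = 0.172 in edgeR). Summed, the pair stood at 16.4 and 16.4 CPM in vector control cells and at 26.3 and 26.3 CPM in OE.

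*ADAMTS17* and *ADAMTS19*, related proteases with few known substrates, were also higher in OE. *ADAMTS17* (ENSG00000140470.9, chr15:100511642-100882210, minus strand) had 48 and 32 counts in vector control cells and 102 and 138 in OE, 2.58-fold more. The log2 fold change was 1.37 (SE 0.289, unadjusted p = 0.0107, adjusted p = 0.129 in edgeR), from 1.09 to 1.69 with a library left out. DESeq2 gave an adjusted p of 0.000772 and called it again only without vector control library 1.

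*ADAMTS19* (ENSG00000145808.4, chr5:128795974-129074376, plus strand) had 51 and 45 counts in vector control cells and 106 and 86 in OE, with a log2 fold change of 0.81 (SE 0.27, unadjusted p = 0.0437, adjusted p = 0.227 in edgeR). The log2 fold change ran from 0.53 without OE library 1 to 1.04 without OE library 2. With all libraries DESeq2 gave *ADAMTS19* an adjusted p of 0.0853. Its antisense partner *ADAMTS19-AS1* shares 58 exonic bases with it and had 14, 9, 25 and 16 counts. *ADAMTS16* and *ADAMTS18*, the other proteases placed in this group, had at most 8 and 11 counts in a library.

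None of the remaining ADAMTS proteases had an unadjusted p under 0.05 in edgeR. Of those that remove the propeptide of procollagens, *ADAMTS3* had 773 and 773 counts in vector control cells and 786 and 858 in OE (log2 fold change -0.12, unadjusted p = 0.289 in edgeR), and *ADAMTS14* 34 and 24 against 50 and 50 (log2 fold change 0.58, unadjusted p = 0.13). Both were without overlap, *ADAMTS3* lower and *ADAMTS14* higher in OE. *ADAMTS7*, which cleaves cartilage oligomeric matrix protein, overlapped, at 1345 and 1507 counts against 1509 and 1618. *ADAMTS13*, which cleaves von Willebrand factor, had 253 and 250 counts against 296 and 388 (log2 fold change 0.23, unadjusted p = 0.172).

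The upstream sequence of *TIMP3* and *ADAMTS6*, the members with the smallest unadjusted p in each direction, is shown with the RefSeq promoter windows for GRCh38.p14, which run from 250 bases before to 50 after the annotated start. Windows were found for 27 members, 16 of them tested. GC boxes (GGGCGG on either strand, so that CCGCCC is the same match) are in capitals.
TIMP3, chr22:32801455-32801754, plus strand: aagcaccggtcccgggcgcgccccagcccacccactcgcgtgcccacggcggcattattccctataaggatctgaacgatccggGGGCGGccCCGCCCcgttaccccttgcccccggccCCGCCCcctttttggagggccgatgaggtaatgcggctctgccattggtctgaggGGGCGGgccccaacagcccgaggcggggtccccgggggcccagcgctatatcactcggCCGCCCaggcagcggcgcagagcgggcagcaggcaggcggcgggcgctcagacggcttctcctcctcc
ADAMTS6, chr5:65481871-65482170, minus strand: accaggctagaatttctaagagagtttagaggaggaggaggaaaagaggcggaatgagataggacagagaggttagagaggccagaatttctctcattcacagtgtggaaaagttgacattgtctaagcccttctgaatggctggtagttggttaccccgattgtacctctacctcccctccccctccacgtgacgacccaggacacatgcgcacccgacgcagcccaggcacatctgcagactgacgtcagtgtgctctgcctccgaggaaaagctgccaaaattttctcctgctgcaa

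The *TIMP3* window held 5 GC boxes and the *ADAMTS6* window 0. A GC box was in the windows of 19 of the 27 members, 13 of them tested, and in 45.0% of the 35116 windows of all genes. The AP-1 motif TGANTCA, which is known from collagenase and stromelysin promoters, was in neither window shown. It was in the windows of 4 members, of which only *MMP10* was tested, and in 7.71% of all windows. Windows of *MMP1*, *MMP2*, *MMP3*, *MMP9*, *ADAMTS1* and *ADAMTS15* were not among those used here.

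The counts of a gene were not always placed on the same transcript. The table lists 226 transcripts for the members, of which 70 had at least 1 count. In *ADAMTS9*, ENST00000498707.1 had 630 and 4 counts in vector control cells and 547 and 606 in OE, while ENST00000295903.4 had 604 in vector control library 2 and 0 in the other libraries. In *MMP11*, ENST00000215743.3 had 83 and 0 counts in vector control cells and 0 and 651 in OE. Gene totals of both were close between libraries. In *MMP28* the 19 counts of vector control library 1 were on ENST00000250144.8 and the 19 of vector control library 2 on ENST00000587639.1, while the 47 and 48 of OE were all on ENST00000589103.1. *TIMP2* had 71.5%, 72.5%, 76.7% and 66.5% of its counts on ENST00000592761.1.

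**Figure D4:**
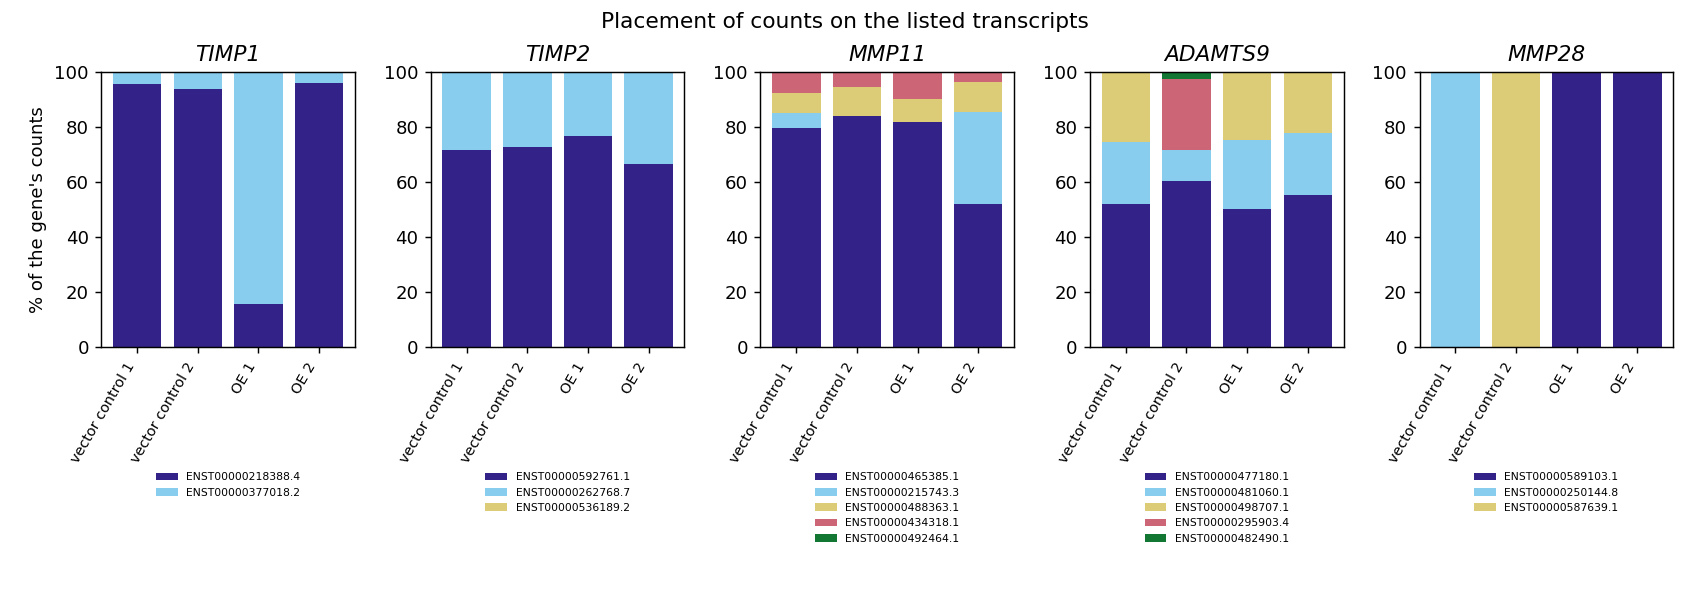
Share of the counts of *TIMP1*, *TIMP2*, *MMP11*, *ADAMTS9* and *MMP28* placed on each listed transcript, in percent, as stacked bars for each library. ENST00000218388.4 held 15.5% of *TIMP1* in OE library 1 and over 90% in the other libraries, ENST00000592761.1 held from 66.5% to 76.7% of *TIMP2*, and *MMP28* changes transcript from vector control library 1 to library 2 and to OE.

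Genes that regulate these proteases were described beside them. Of 20 such genes, 17 were tested, and at an unadjusted p under 0.05 in edgeR 2 were higher and 7 lower in OE (10.1% and 10.7% of all genes tested), with a median log2 fold change of -0.29 against 0.01 over all genes tested. The matrix-associated inhibitor *TFPI2* was lower, with 2191 and 2120 counts in vector control cells and 1002 and 1311 in OE (log2 fold change -1.11, unadjusted p = 0.000692, adjusted p = 0.0629). *RECK*, a membrane-anchored MMP inhibitor, was lower, with 2495 and 2347 against 1516 and 1607 (log2 fold change -0.84, unadjusted p = 0.00132, adjusted p = 0.0707). So was *FURIN*, which activates several MMP and ADAMTS proenzymes, with 3826 and 4168 against 2474 and 3046 (log2 fold change -0.74, unadjusted p = 0.00127, adjusted p = 0.0707). In none of these 3 did the groups overlap. On the other side were the plasmin inhibitor *SERPINF2*, with 26 and 16 counts against 77 and 66, and the proprotein convertase *PCSK6*, with 9 and 4 against 24 and 36. *PCSK6* passed the filter on low counts only through the OE libraries, so that without it 1 gene of the list was higher.

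Of 10 membrane-bound ADAM proteases, 9 were tested, 3 of them higher and 4 lower in OE at an unadjusted p under 0.05 (10.1% and 10.7% of all genes tested), with a median log2 fold change of -0.22. *ADAM23*, *ADAM19* and the sheddase *ADAM10* were lower (-0.82, -0.70 and -0.50), and *ADAM8*, *ADAM12* and the TNF-converting enzyme *ADAM17* higher (1.01, 0.41 and 0.37). The ADAMTS-like proteins, which lack the protease domain, had 6 of 7 tested. At an unadjusted p under 0.05, 1 was higher and 2 were lower (10.1% and 10.7% of all genes tested). Higher was *ADAMTSL2* (1.09), and lower were *ADAMTSL4* and *ADAMTSL5* (-0.37 and -0.35). The median of the list was -0.10.

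Of 21 matrix substrates other than collagens and laminins, 18 were tested, 3 higher and 4 lower at an unadjusted p under 0.05 (10.1% and 10.7% of all genes tested), with a median of -0.08. Versican, *VCAN*, a substrate of *ADAMTS1*, *ADAMTS9* and *ADAMTS15*, had 15569 and 14600 counts in vector control cells and 11175 and 13521 in OE (log2 fold change -0.50, unadjusted p = 0.00187, adjusted p = 0.0778 in edgeR). *SPARC* (-0.41) and biglycan, *BGN* (-0.17), were lower as well, and decorin, *DCN* (1.12), brevican, *BCAN* (0.66), and neurocan, *NCAN* (0.89), higher. *DCN* had 270 and 310 counts against 731 and 715. None of the genes in these lists of regulators, ADAMs, ADAMTS-like proteins and substrates passed an adjusted p of 0.05 in edgeR. DESeq2 gave adjusted p-values of 1.43e-20 for *TFPI2*, 2.21e-15 for *RECK*, 1.42e-15 for *FURIN*, 2.52e-18 for *ADAM23*, 1.37e-11 for *VCAN* and 5.81e-09 for *DCN*.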

How the data were processed

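The 4 RNA-seq libraries of SK-N-SH cells, 2 OE and 2 vector control, were grouped by their treatment label. Reads were trimmed (Trimmomatic) and mapped (Bowtie2, hg19) by the authors, who deposited unnormalized counts, in whole numbers, for each Ensembl transcript. The submitters' processing notes name Bowtie2 2.0.4, Picard 2.21.6, StringTie 2.1.6 and DESeq2. The counting settings, annotation release and strand use are not given in the sources used here. The members and the gene lists were chosen with earlier results of these data known.

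Counts were summed per gene, and 20528 of 57820 genes passed edgeR's filterByExpr. Library sizes were normalized by TMM (factors from 0.976 to 1.02). The test was edgeR's quasi-likelihood test (edgeR 4.0.16, R 4.3.3) of OE against vector control, with Benjamini-Hochberg adjustment over all genes tested and no covariates. Each SE was worked back from the F statistic of this test, as the size of the log2 fold change divided by the square root of F. DESeq2, the tool of the study, was an alternative, run here in version 1.42.0. Other alternatives were RLE normalization, filters that kept genes with 1 count in total or with 10 counts on average, the replicate number as a block, the removal of each library in turn, the transcript with the highest mean count, leaving out mitochondrial genes, and transcript lengths for levels. The scripts were tested on simulated data.

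The 30 members that averaged 1 CPM or more were named with their counts, and full test values were given at an unadjusted p under 0.05, except for *MMP21*, and for the TIMPs. Of the other lists, up to 3 genes per direction with the smallest p were named. Limits of 3 counts for a count of 0 cover counting error only, since reads carry no molecular identifiers. Gene positions and catalytic sites came from the GENCODE annotation lifted to GRCh37, where 45 members matched by ID and *MMP12* and *MMP28* by symbol. Promoter windows came from RefSeq. Figures were drawn with matplotlib 3.10.9.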

Additional observations from a re-analysis of the deposited data

How the results depend on the processing

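With edgeR, 0 members were called under each alternative run (RLE normalization, a filter that kept genes with 1 count in total, or with 10 counts on average, the transcript with the highest mean count, without mitochondrial genes, an adjusted p under 0.05, and any library left out). Over all genes the count of calls was 0 in most of these fits, 9 with a filter of 1 count, 1 with the single transcript and 122 at an adjusted p under 0.05. DESeq2 called 6 members and 1800 genes in all, and with a library left out, a choice made after the values were seen, from 2 to 4 members and from 1425 to 1514 genes in all. Only *TIMP3* was called in all of these DESeq2 fits. Members higher in OE at an unadjusted p under 0.05 numbered 9. This count ranged from 2 to 5 in edgeR with a library left out, with 4 without vector control library 1, 5 without vector control library 2, 4 without OE library 1 and 2 without OE library 2, and from 4 to 7 in DESeq2. In both directions together 6 of 31 members (19.4%) passed without OE library 2 in edgeR, against 16.7% of all genes. Members lower in OE numbered 4, and 4 again with any library left out in edgeR. DESeq2 gave 7, and from 4 to 6 with a library left out. The median log2 fold change of 0.10 was 0.19 over the 41 members kept by the filter of 1 count in total. With a library left out it ranged from -0.02 (without OE library 2) to 0.09, with 0.00 without vector control library 1, and from -0.02 to 0.08 in DESeq2 with a library left out. No log2 fold change that had an unadjusted p under 0.05 changed sign.

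The correlation of the deviations of same-numbered libraries was -0.0152, so no shift shared by same-numbered libraries was seen across genes. This value cannot tell whether such libraries were prepared together. With the replicate number as a block, edgeR called 0 members, and 7 were higher and 4 lower at an unadjusted p under 0.05 (35.5% together, against 14.9% of all genes), with a median of 0.09. Of the 16 members not tested, 10 had counts, at most 11 in a library, and the part of reads from opposite-strand genes was not tested. Levels between genes depend on the length used, as given for *TIMP2* and *ADAMTS9*.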
